A study of Homo sapiens with 9 samples.

Results

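The 9 genes NFE2L2, KEAP1, MAFG, NQO1, TXN, TXNRD1, SRXN1, PRDX1 and PGD of the NRF2 and thioredoxin system were followed through the silencing of CDO1 in VCaP, an established human prostate cancer cell line. They were chosen by symbol for their known roles, after earlier results of these data had been seen. All 9 were found among the 58735 genes of the deposited count table. All 9 also passed the filter on low counts, as did 15555 genes in all. VCaP cells grown with 10% fetal bovine serum and 2 nM dihydrotestosterone (DHT) were transfected with a control siRNA (siCtrl, labelled as wild type) or with siCDO1A or siCDO1C, both labelled as CDO1 knockdown. Each condition had 3 libraries, labelled as biological replicates of batches 1 to 3, and the knockdowns were transient transfections of a single cell line. Poly(A) RNA was sequenced, so the values are mRNA levels and not protein or activity.

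NRF2, the product of NFE2L2, is a transcription factor that raises the expression of antioxidant and detoxifying genes. KEAP1 binds it and directs it to degradation until oxidants or electrophiles modify KEAP1 cysteines, whereupon NRF2 pairs with a small Maf protein such as MAFG and binds antioxidant response elements (ARE). Among its textbook targets, TXNRD1 uses NADPH to reduce thioredoxin (TXN), thioredoxin reduces peroxiredoxins such as PRDX1, SRXN1 restores overoxidized peroxiredoxins, NQO1 reduces quinones, and PGD supplies NADPH in the pentose phosphate pathway. CDO1 oxidizes cysteine, the amino acid from which glutathione is made and whose thiols the thioredoxin system keeps reduced in proteins.

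The promoters of TXNRD1 are shown because this gene was lower with both siRNAs, and that of KEAP1 because it held the other pair of ARE matches among the 9 genes and its mRNA was not past the threshold with either siRNA. The ARE core was searched as TGACNNNGC on both strands of the RefSeq promoter windows of GRCh38.p14, from 250 bases before to 50 bases after each start site. The windows are printed 5′ to 3′ on the strand of the gene up to base 9 after the first transcribed base (position 0), with the matches in capitals. The upstream TXNRD1 window lies at chr12:104215529-104215788 and the downstream one at chr12:104286782-104287041, both on the plus strand, and the KEAP1 window lies at chr19:10502762-10503021 on the minus strand.
TXNRD1, upstream start: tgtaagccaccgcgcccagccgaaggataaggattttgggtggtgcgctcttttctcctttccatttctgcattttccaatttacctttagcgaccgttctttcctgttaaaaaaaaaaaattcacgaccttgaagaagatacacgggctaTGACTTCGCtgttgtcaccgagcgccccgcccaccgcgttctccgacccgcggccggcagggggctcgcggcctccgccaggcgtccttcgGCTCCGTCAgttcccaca
TXNRD1, downstream start: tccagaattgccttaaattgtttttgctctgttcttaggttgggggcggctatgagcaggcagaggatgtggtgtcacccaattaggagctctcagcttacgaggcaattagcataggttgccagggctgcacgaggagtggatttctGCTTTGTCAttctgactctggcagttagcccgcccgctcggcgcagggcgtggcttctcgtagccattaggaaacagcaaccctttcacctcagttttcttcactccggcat
KEAP1: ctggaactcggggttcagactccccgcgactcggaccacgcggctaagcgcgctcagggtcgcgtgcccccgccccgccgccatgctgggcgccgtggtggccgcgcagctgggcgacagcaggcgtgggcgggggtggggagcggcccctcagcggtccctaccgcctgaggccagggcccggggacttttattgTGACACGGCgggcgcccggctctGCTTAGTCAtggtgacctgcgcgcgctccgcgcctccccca

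The upstream TXNRD1 window held TGACTTCGC at -99 to -91 and, on the other strand, the match printed as GCTCCGTCA at -8 to 0. The downstream window held GCTTTGTCA at -102 to -94, also a match on the other strand. KEAP1 had TGACACGGC at -54 to -46 and GCTTAGTCA at -31 to -23 in 1 of its 2 windows, and PGD had GCAATGTCA at -201 to -193. In all, 4 of the 11 windows of the 8 genes with an entry held a match (36.4%), against 4687 of 35116 windows of all genes (13.3%) and 12 of 38 windows of the other NRF2 target genes listed (31.6%). No match was found in the windows of NFE2L2, MAFG, NQO1, TXN or SRXN1, and PRDX1 had no entry. With the letters TGANTCAGC, none of the 11 windows matched, against 1.36% of all windows. A match of these letters is a description of the sequence and does not show binding.

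CDO1 (ENSG00000129596) was first checked in every library. Its level, in CPM (counts scaled to the library total after TMM normalization), was 14.2, 14.1 and 13.6 in the siCtrl libraries, 3.28, 2.05 and 2.18 with siCDO1A, and 1.09, 2.81 and 1.15 with siCDO1C. All 6 knockdown libraries lay below the siCtrl libraries, with a reduction of 82.1% ± 4.83 (SD, n = 3) for siCDO1A and 87.9% ± 6.98 (SD, n = 3) for siCDO1C. In a two-sided exact permutation test the p-value was 0.1 for each siRNA, the smallest that 3 libraries against 3 allow. Replicate 2 of siCDO1C kept the most CDO1 of its group. The total count ranged from 12061295 to 16073698 per library, so that 3 counts, the limit below which a gene at 0 may lie, correspond to 0.187 to 0.249 CPM. This limit covers counting error only. All 8 prostate luminal and VCaP markers listed, among them KLK3, KLK2, TMPRSS2, FOLH1, HOXB13 and ERG, were detected in every group. The summed level of the 8 was 5680 to 5830 CPM in siCtrl, 6600 to 6930 CPM with siCDO1A and 6090 to 6290 CPM with siCDO1C, so that every knockdown library lay above siCtrl. The summed levels of the 4 basal, 5 leukocyte and 4 endothelial markers were at most 3.48, 0.992 and 2.67 CPM, and the 5 fibroblast markers summed to between 14.6 and 23.0 CPM. KRT5, KRT15, CD3E, CD68, COL1A2 and CDH5 were at 0 in the siCtrl group. The part of these marker levels in the results below was not tested, and in RNA of whole cultures, fewer cells of a type and less RNA per cell cannot be told apart.

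The 9 mRNAs spanned a wide range of levels per length. In siCtrl cells, levels scaled to gene length and library size (RPKM, mean ± SD, n = 3) were highest for TXN, at 207 ± 9.59, followed by PRDX1 at 86.1 ± 3.25, TXNRD1 at 72.7 ± 0.926 and PGD at 68.7 ± 3.36. TXNRD1 and PGD overlapped between libraries and were not ordered beyond their spread. The regulators were less abundant, with KEAP1 at 27.0 ± 3.14, MAFG at 11.9 ± 0.34 and NFE2L2 at 8.75 ± 0.791 RPKM. SRXN1 stood at 6.14 ± 0.454 and NQO1 at 1.73 ± 0.261 RPKM, and apart from TXNRD1 and PGD no neighbours in this order overlapped. TXN, PRDX1 and TXNRD1, which pass electrons from NADPH to peroxides, were with PGD the most abundant of the 9, whereas NQO1, a common reporter gene of NRF2, had only 54 to 90 counts per library.

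With siCDO1A, the order among the abundant genes differed. PGD, at 76.0 RPKM, came second, and TXNRD1 at 55.9 and PRDX1 at 55.2 RPKM overlapped. With siCDO1C, PRDX1 remained second at 81.7 RPKM and TXNRD1 came after PGD, at 53.8 RPKM, with PGD at 66.4 RPKM. The lower 5 genes kept the same order in all 3 conditions.

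**Figure D1:**
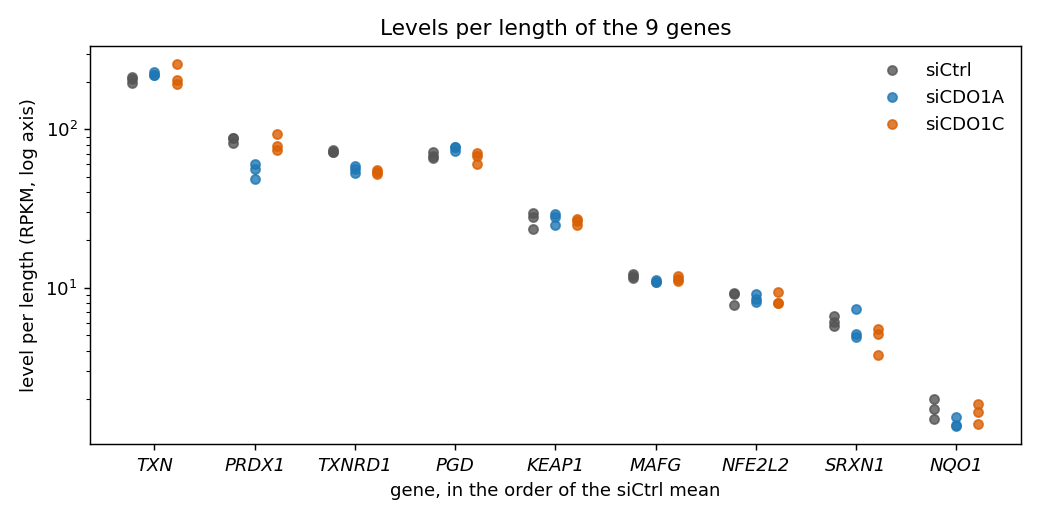
Level per length (RPKM, log axis) of the 9 genes, in the order of their siCtrl means. Each point is 1 library and the colour gives the condition; TXN was highest at 207 RPKM and NQO1 lowest at 1.73 RPKM in siCtrl cells, and the PRDX1 points of siCDO1A and the TXNRD1 points of both siRNAs lie below those of siCtrl.

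The first comparisons asked which of the 9 genes differed between each siRNA and siCtrl. TXNRD1, the reductase, was lower with both siRNAs, 1.3-fold with siCDO1A and 1.36-fold with siCDO1C, and PRDX1 was 1.56-fold lower with siCDO1A. No member was higher past the threshold with either siRNA, an adjusted p of at most 0.05 in edgeR's quasi-likelihood test over all genes tested. With siCDO1A, 2 of the 9 genes were changed (22.2%), against 14.8% of all genes tested. With siCDO1C, 1 of 9 was changed (11.1%), against 4.77% of all genes. The median log2 fold change of the 9 genes was -0.10 with siCDO1A and -0.07 with siCDO1C, against 0.0102 and -0.000233 over all genes. Without siCDO1A replicate 2 the first of these medians was -0.000504. The 3 libraries of each condition did not overlap with siCtrl in CPM for 5 genes with siCDO1A (MAFG, TXN, TXNRD1, PRDX1 and PGD), where 30.6% of all genes showed no overlap, and for TXNRD1 and SRXN1 with siCDO1C, where 24.2% did. The siCDO1A and siCDO1C comparisons share the siCtrl libraries.

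**Figure D2:**
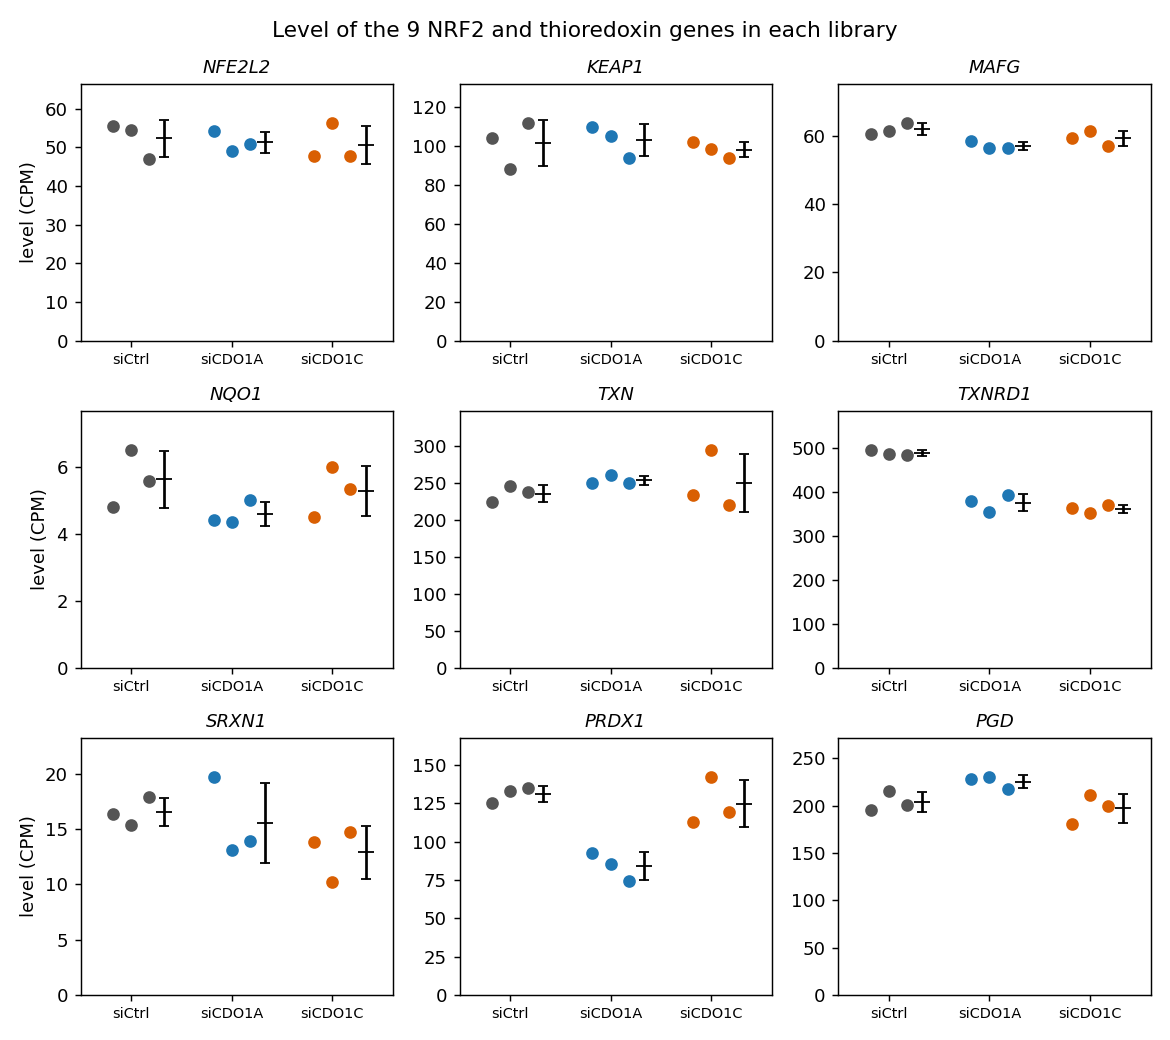
Level of each gene in every library (CPM, axes from 0), with the libraries of a condition in the order of replicates 1 to 3 and the mean ± SD (n = 3) beside them. TXNRD1 is lower in all 6 knockdown libraries (351 to 393 CPM, against 483 to 495 CPM in siCtrl), and PRDX1 is lower in the 3 siCDO1A libraries (74.5 to 92.5 CPM).

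TXNRD1 (ENSG00000198431; chromosome 12, 104215779 to 104350305, plus strand, GRCh38) encodes the cytosolic thioredoxin reductase, a selenoprotein. Its level was 495, 485 and 483 CPM in siCtrl, 378, 354 and 393 CPM with siCDO1A, and 363, 351 and 370 CPM with siCDO1C. Neither knockdown group overlapped with siCtrl, and the knockdown groups overlapped with each other. siCDO1A gave a log2 fold change of -0.38 (standard error 0.0516, 95% confidence interval -0.49 to -0.27, adjusted p = 3.3e-05). With siCDO1C it was -0.44 (standard error 0.0669, interval -0.58 to -0.30, adjusted p = 0.00131). Within batches 1, 2 and 3, the log2 ratio to siCtrl was -0.39, -0.46 and -0.30 for siCDO1A and -0.45, -0.47 and -0.38 for siCDO1C, so that it was lower in every batch. Both calls held in every alternative fit, those without each single library included. RPL18AP3, a processed pseudogene that lies within TXNRD1 on the same strand and had 2086 to 3332 counts, was not past the threshold (log2 fold change 0.09 for siCDO1A, adjusted p = 0.321; -0.06 for siCDO1C, adjusted p = 0.766).

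PRDX1 (ENSG00000117450; chromosome 1, 45511036 to 45523047, minus strand) encodes a cytosolic peroxidase that thioredoxin keeps reduced. It was measured at 125, 133 and 135 CPM in siCtrl, at 92.5, 85.3 and 74.5 CPM with siCDO1A, and at 113, 142 and 119 CPM with siCDO1C. All siCDO1A libraries were below the other 6, whereas the siCDO1C libraries lay on both sides of siCtrl, with replicate 2 the highest of all. siCDO1A gave a log2 fold change of -0.64 (standard error 0.0712, interval -0.79 to -0.49, adjusted p = 2.9e-06) and was lower in each batch (-0.44, -0.64 and -0.85). With siCDO1C it was -0.08 (interval -0.27 to 0.10, adjusted p = 0.664). Without siCDO1C replicate 2, PRDX1 was past the threshold with siCDO1C as well, at -0.19 (adjusted p = 0.0322). MMACHC, which overlaps PRDX1 on the opposite strand, had 184 to 249 counts. It was not past the threshold for siCDO1A (log2 fold change 0.01, adjusted p = 0.955) or siCDO1C (0.12, adjusted p = 0.648). The strand setting of the counting is not given in the sources used here.

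TXN (ENSG00000136810; chromosome 9, 110243811 to 110256640, minus strand), the substrate of TXNRD1, was measured at 224, 246 and 238 CPM in siCtrl, 250, 261 and 250 CPM with siCDO1A, and 234, 295 and 221 CPM with siCDO1C. The siCDO1A libraries were all above siCtrl, by a log2 fold change of 0.10 (interval -0.01 to 0.22) that was not past the threshold (adjusted p = 0.219). With siCDO1C the value was 0.08 (interval -0.12 to 0.28, adjusted p = 0.73), and replicate 2 was again the highest. The processed pseudogenes of TXN had at most 6 counts in any library.

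SRXN1 (ENSG00000271303; chromosome 20, 646615 to 653370, minus strand) encodes sulfiredoxin, which acts on overoxidized peroxiredoxins. Its level was 16.4, 15.4 and 17.9 CPM in siCtrl, 19.7, 13.1 and 13.9 CPM with siCDO1A, and 13.8, 10.2 and 14.7 CPM with siCDO1C. The siCDO1A libraries lay on both sides of siCtrl (log2 fold change -0.10, interval -0.38 to 0.17, adjusted p = 0.656). The siCDO1C libraries were all below siCtrl (-0.37, interval -0.67 to -0.07), with an unadjusted p of 0.0184 that did not hold after adjustment (adjusted p = 0.16).

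The ratio of levels within a library put the mRNA of an enzyme against that of its substrate. The RPKM ratio of TXNRD1 to TXN was 0.376, 0.336 and 0.346 in siCtrl, 0.258, 0.230 and 0.268 with siCDO1A, and 0.264, 0.202 and 0.285 with siCDO1C. It was lower in all 6 knockdown libraries than in siCtrl. The ratio of SRXN1 to PRDX1 was 0.0738, 0.0653 and 0.0748 in siCtrl, 0.120, 0.0868 and 0.105 with siCDO1A, and 0.0692, 0.0405 and 0.0702 with siCDO1C. It was higher in every siCDO1A library than in the other 6, while siCtrl and siCDO1C overlapped. These ratios are descriptions computed from the same mRNA values as the levels above, so they add no separate evidence, and no test was run on them.

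**Figure D3:**
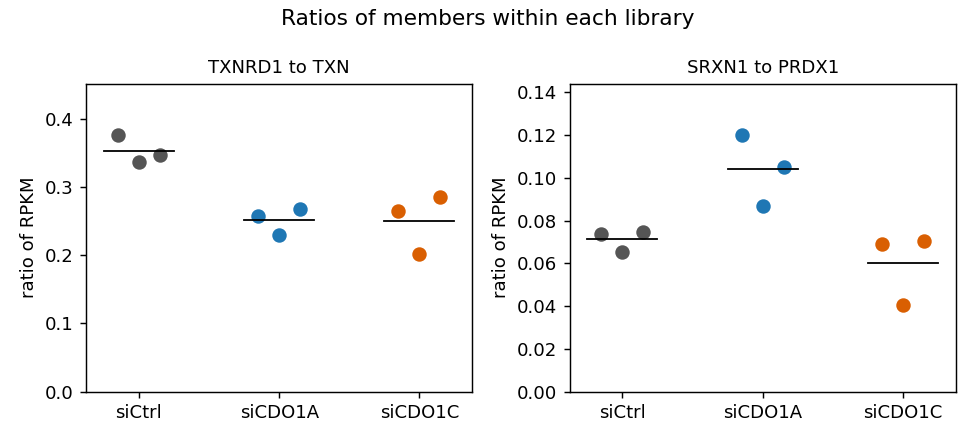
Ratio of RPKM within each library (axes from 0) for TXNRD1 to TXN and SRXN1 to PRDX1, with 1 point per library in the order of replicates 1 to 3 and a line at the mean of the condition. The TXNRD1 to TXN ratio is 0.336 to 0.376 in siCtrl and 0.202 to 0.285 in the knockdown libraries, and the SRXN1 to PRDX1 ratio is highest with siCDO1A (0.0868 to 0.120).

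The regulators themselves were not past the threshold with either siRNA. NFE2L2 (ENSG00000116044; chromosome 2, 177227595 to 177392697, minus strand) was measured at 55.6, 54.4 and 46.9 CPM in siCtrl, 54.2, 48.9 and 50.7 CPM with siCDO1A, and 47.7, 56.3 and 47.7 CPM with siCDO1C. The 3 conditions overlapped, with log2 fold changes of -0.03 for siCDO1A (interval -0.19 to 0.14, adjusted p = 0.863) and -0.05 for siCDO1C (interval -0.26 to 0.15, adjusted p = 0.827). KEAP1 (ENSG00000079999; chromosome 19, 10486120 to 10503741, minus strand), the adaptor that leads NRF2 to degradation, was measured at 104, 88.5 and 112 CPM in siCtrl, 110, 105 and 93.9 CPM with siCDO1A, and 102, 98.7 and 94.0 CPM with siCDO1C. It overlapped likewise, at 0.02 with siCDO1A (interval -0.15 to 0.18, adjusted p = 0.922) and -0.06 with siCDO1C (interval -0.24 to 0.13, adjusted p = 0.798). The RPKM ratio of NFE2L2 to KEAP1 was 0.264 to 0.386 in siCtrl, 0.293 to 0.339 with siCDO1A and 0.294 to 0.359 with siCDO1C. AGPS, which overlaps NFE2L2 on the opposite strand, had 764 to 1154 counts, more than NFE2L2 itself. AGPS was not past the threshold for siCDO1A (log2 fold change -0.05, adjusted p = 0.726) or siCDO1C (0.02, adjusted p = 0.921).

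MAFG (ENSG00000197063; chromosome 17, 81918270 to 81927714, minus strand), a small Maf partner of NRF2, was measured at 60.6, 61.6 and 64.0 CPM in siCtrl, 58.6, 56.6 and 56.5 CPM with siCDO1A, and 59.6, 61.5 and 57.2 CPM with siCDO1C. The siCDO1A libraries were all below siCtrl, but the log2 fold change of -0.12 (interval -0.26 to 0.02) was not past the threshold (adjusted p = 0.272), nor was that of -0.07 with siCDO1C (interval -0.23 to 0.09, adjusted p = 0.692). SIRT7, which overlaps MAFG on the same strand, had 188 to 346 counts. It was not past the threshold for siCDO1A (log2 fold change 0.21, adjusted p = 0.334) or siCDO1C (0.16, adjusted p = 0.565).

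Of the remaining targets, PGD (ENSG00000142657; chromosome 1, 10398592 to 10420144, plus strand), the second NADPH-producing enzyme of the pentose phosphate pathway, was measured at 195, 215 and 201 CPM in siCtrl, 228, 230 and 218 CPM with siCDO1A, and 180, 211 and 200 CPM with siCDO1C. All siCDO1A libraries were above the other 6. The log2 fold change of 0.15 with siCDO1A (interval 0.03 to 0.26) missed the threshold (adjusted p = 0.0846) and passed it only without siCDO1A replicate 3 among the alternatives run (0.17, adjusted p = 0.0126). With siCDO1C it was -0.06 (interval -0.22 to 0.11, adjusted p = 0.751).

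NQO1 (ENSG00000181019; chromosome 16, 69706996 to 69726951, minus strand) was measured at 4.82, 6.52 and 5.58 CPM in siCtrl, 4.42, 4.37 and 5.01 CPM with siCDO1A, and 4.51, 6.0 and 5.35 CPM with siCDO1C. The conditions overlapped. The log2 fold changes were -0.29 with siCDO1A (interval -0.65 to 0.07, adjusted p = 0.298) and -0.10 with siCDO1C (interval -0.49 to 0.28, adjusted p = 0.826). These were the widest intervals of the 9 genes, at the lowest counts. The TXNRD1 values of -0.38 with siCDO1A and -0.44 with siCDO1C lay inside them, so that a change of that size in NQO1 was neither shown nor excluded.

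The siRNAs were then set against each other, since a call with only 1 of them does not show that they differ. Of the 9 genes, 1 differed between siCDO1C and siCDO1A (11.1%), against 0.444% of all genes. This was PRDX1, 1.48-fold higher with siCDO1C (log2 fold change 0.56, standard error 0.101, interval 0.35 to 0.77, adjusted p = 0.0143). It was higher in every batch (0.28, 0.73 and 0.67), but the call was lost without siCDO1A replicate 2 (0.57, adjusted p = 0.13) or replicate 3 (0.50, adjusted p = 0.122). PRDX1 and PGD were the genes of the 9 whose libraries did not overlap, against 12.7% of all genes. For PGD the value was -0.20 (interval -0.37 to -0.03, adjusted p = 0.551), past the threshold only without siCDO1C replicate 2 (-0.25, adjusted p = 0.0443). For TXNRD1 it was -0.06 (interval -0.22 to 0.11, adjusted p = 0.961), and for NFE2L2 -0.02 (adjusted p = 0.992). The median of the 9 genes was -0.02.

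**Figure D4:**
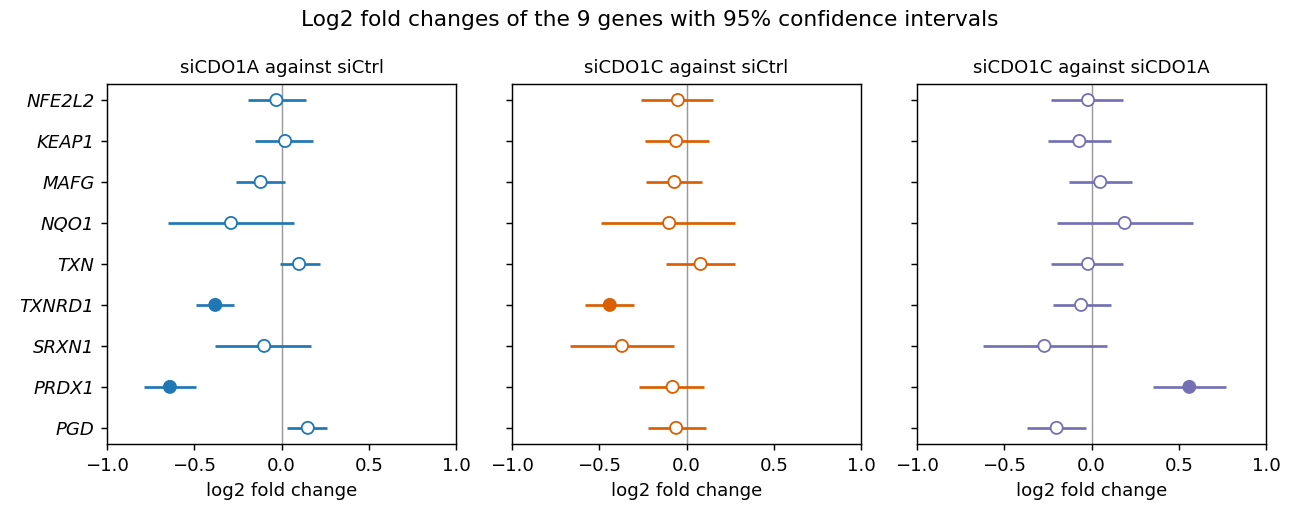
Log2 fold change of each gene in edgeR with its 95% confidence interval, for each siRNA against siCtrl and for siCDO1C against siCDO1A (3 libraries per condition). Filled circles passed an adjusted p of 0.05: TXNRD1 with both siRNAs (-0.38 and -0.44), PRDX1 with siCDO1A (-0.64), and PRDX1 between the siRNAs (0.56).

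Across the 9 libraries, the genes followed each other to very different degrees. Among the 36 pairs of the 9 genes, Pearson's r of log2 CPM was highest for MAFG and PRDX1 (0.825) and lowest for TXN and SRXN1 (-0.629). NFE2L2 had r = 0.177 with TXNRD1, 0.206 with PRDX1 and 0.264 with NQO1. Of 11332 genes with a mean of at least 5 CPM, those most like TXNRD1 were INPP4B (r = 0.99), COPG1 (0.989) and UGT2B15 (0.988), and those most like NFE2L2 were TPMT (0.953), MEMO1 (0.919) and TIPRL (0.91). These correlations describe 9 libraries in which the genes share the library, its depth and the condition.

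The other genes of the pathway were counted in 4 lists of 106 genes together, 98 of which were tested. These lists were also written with earlier results of these data known. With siCDO1A, 9 were higher and 11 lower than in siCtrl (20.4% of the 98, against 14.8% of all genes). With siCDO1C, 1 was higher and 10 were lower (11.2%, against 4.77% of all genes), but this total of 11 was 25 without siCDO1C replicate 2 and 5, 6 and 5 without siCtrl replicates 1, 2 and 3. The 4.77% belongs to the fit without any library left out, and the shares of all genes in the other fits are not given here. Among the 21 other regulators and partners of NRF2, 1 was higher and 3 were lower with siCDO1A (19.0%, against 14.8% of all genes), with a median log2 fold change of -0.09. BACH1, the repressor that competes with NRF2 for small Maf proteins and ARE, fell from 108 to 86.2 CPM in the mean (log2 fold change -0.33, adjusted p = 0.00374). PGAM5, a mitochondrial phosphatase bound by KEAP1, rose from 112 to 140 CPM (0.32, adjusted p = 0.00182). GSK3B, a kinase that marks NRF2 for degradation, was at -0.21 (adjusted p = 0.0477), a call lost with the batch number as a block (adjusted p = 0.119), in the fit of all 9 libraries (0.161), and without siCDO1A replicate 1 or 2 or siCtrl replicate 1 or 2 (0.133 to 0.241). SQSTM1, an autophagy receptor that sequesters KEAP1, was the remaining lower gene (-0.21, adjusted p = 0.0424). With siCDO1C, 0 of the 21 were called by edgeR (against 4.77% of all genes), and their median was -0.06. DESeq2 also called 0 of them, and its share of all genes is not given here. An unadjusted p under 0.05 in edgeR was found for 6 of the 21, and the share of all genes at that level is not given here.

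Of the 36 other NRF2 target genes tested, 5 were higher and 7 lower with siCDO1A (33.3%, against 14.8% of all genes), and 0 were higher and 7 lower with siCDO1C (19.4%, against 4.77%), with medians of -0.06 and -0.08. Of the 43 listed, 7 were too low to test, among them HMOX1 with 2 to 11 counts per library. SLC7A11, which imports cystine, was measured at 43.5, 42.9 and 38.4 CPM in siCtrl, 24.2, 23.3 and 28.0 CPM with siCDO1A, and 14.8, 12.3 and 16.3 CPM with siCDO1C. The 3 conditions did not overlap. Against siCtrl, siCDO1A gave -0.72 on the log2 scale (adjusted p = 1.5e-05), siCDO1C gave -1.53 (adjusted p = 2.8e-06), and the siRNAs differed by -0.80 (adjusted p = 0.0043), a call lost without siCDO1A replicate 3 (adjusted p = 0.0877). GSR, glutathione reductase, was measured at 80.0, 85.1 and 74.5 CPM in siCtrl, 69.4, 71.9 and 77.8 CPM with siCDO1A, and 33.6, 43.3 and 37.1 CPM with siCDO1C. It was lower with siCDO1C (-1.08, adjusted p = 1.5e-05) and overlapped with siCtrl with siCDO1A (-0.13, adjusted p = 0.255), and the siRNAs differed by -0.95 (adjusted p = 0.00015).

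Another 5 targets were lower with both siRNAs. Both comparisons share the siCtrl libraries, and the share of all genes lower with both siRNAs is not given here. ABCC3, an efflux pump of conjugates, stood at -1.15 on the log2 scale against siCtrl for siCDO1A (adjusted p = 5.5e-05) and at -1.04 for siCDO1C (adjusted p = 0.00244), from a siCtrl mean of 8.51 CPM. GPX2, a glutathione peroxidase, was at -0.91 (adjusted p = 0.00192) and -0.90 (adjusted p = 0.0214), from 5.44 CPM. HTATIP2 was at -0.55 (adjusted p = 0.00037) and -0.42 (adjusted p = 0.0247), PIR at -0.37 (adjusted p = 0.0107) and -0.62 (adjusted p = 0.00798), and ME1, the cytosolic malic enzyme, at -0.39 (adjusted p = 0.0131) and -0.45 (adjusted p = 0.0277). The calls of ABCC3 held whichever library was left out. With siCDO1C, the call of GPX2 was lost without siCDO1C replicate 3 and without each siCtrl library (adjusted p 0.0667 to 0.102), and those of HTATIP2 and ME1 without siCDO1C replicate 1 or 3 and without each siCtrl library (0.0902 to 0.12 and 0.06 to 0.155). PIR lost its calls without siCtrl replicate 3 (0.0578 and 0.0757), and ME1 that with siCDO1A without siCDO1A replicate 2 or siCtrl replicate 1 or 2 (0.0538 to 0.0923). The genes higher with siCDO1A were TKT (0.22), ABCC1 (0.31), ABCC4 (0.44), PTGR1 (0.41) and FECH (0.33), and GCLC, the catalytic subunit of the enzyme that starts glutathione synthesis, was the seventh lower gene (-0.32, adjusted p = 0.00238). These 6 and SQSTM1 were chosen for naming after their values were seen.

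Of the 26 other thioredoxin and peroxiredoxin genes, 1 was higher and 0 were lower with siCDO1A (3.85%, against 14.8% of all genes), and 1 was higher and 2 were lower with siCDO1C (11.5%, against 4.77%), with medians of 0.02 and 0.01. SESN1, a stress-induced sestrin, was higher with both (0.33, adjusted p = 0.00205, and 0.34, adjusted p = 0.0361), the latter call being lost without each siCtrl library (0.143 to 0.147). SESN2 was lower with siCDO1C (-0.59, adjusted p = 0.0304), a call lost without siCDO1C replicate 1 or 3 and without each siCtrl library (0.0928 to 0.129). MAP3K5, the kinase ASK1 that reduced thioredoxin holds inactive, was also lower with siCDO1C (-0.45, adjusted p = 0.00517). PRDX2 to PRDX6, named for comparison with PRDX1 after their values were seen, had log2 fold changes of 0.15, -0.03, 0.10, 0.13 and 0.09 with siCDO1A, where none was past the threshold (adjusted p 0.114 to 0.776).

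Of the 20 other pentose phosphate and NADPH genes tested, 3 were higher and 2 lower with siCDO1A (25%, against 14.8% of all genes), and 0 were higher and 2 lower with siCDO1C (10.0%, against 4.77%), with medians of 0.05 and 0.01. This list shares TKT and ME1 with the targets. NADK2, the mitochondrial NAD kinase, was measured at 127, 121 and 123 CPM in siCtrl, 84.8, 84.1 and 86.8 CPM with siCDO1A, and 93.7, 99.7 and 90.0 CPM with siCDO1C. Every knockdown library was below siCtrl, with log2 fold changes of -0.54 (adjusted p = 2.5e-06) and -0.40 (adjusted p = 0.00475, and 0.056 without siCtrl replicate 1). PRPS2, which makes the ribose phosphate donor of nucleotide synthesis, was higher with siCDO1A (0.26, adjusted p = 0.0376), a call lost in DESeq2 (0.0534), in the fit of all 9 libraries (0.0787), with the batch number as a block (0.108), and without each single library other than siCDO1A replicate 3 (0.0586 to 0.182). Between the siRNAs, SLC7A11 and GSR were the 2 genes of the 98 past the threshold (2.04%, against 0.444% of all genes). DESeq2 also called 2, and its share of all genes is not given here. An unadjusted p under 0.05 in edgeR was found for 13 of the 98, and the share of all genes at that level is not given here.

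**Figure D5:**
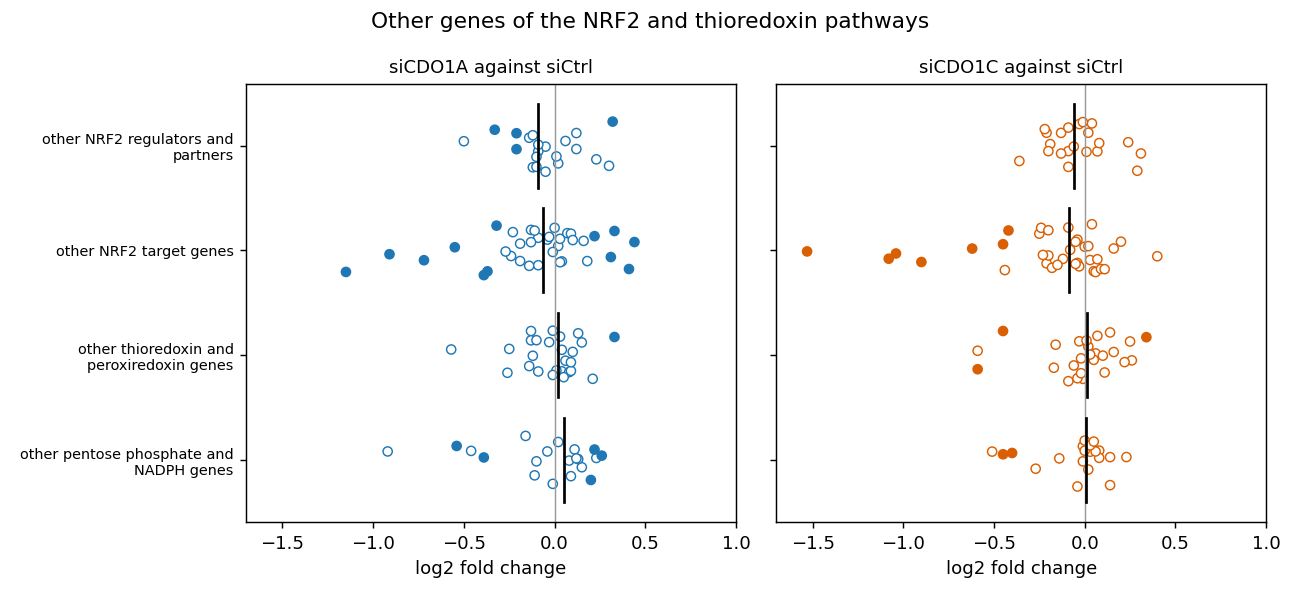
Log2 fold changes in edgeR of the other genes of the pathway by list, for siCDO1A (left) and siCDO1C (right) against siCtrl. Each circle is a gene, filled where the adjusted p was at most 0.05, with a black line at the list's median and a vertical scatter that has no meaning; the lowest filled points are ABCC3 with siCDO1A (-1.15) and SLC7A11 with siCDO1C (-1.53).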

How the data were processed

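RNA-seq of VCaP cells was analysed in 9 libraries, 3 for each of siCtrl, siCDO1A and siCDO1C. The authors counted reads per gene with featureCounts, the deposited counts are raw, and the submitters' processing notes name CASAVA, HISAT2 2.0.5 and hg38. The deposited gene length is in bases. How featureCounts treated strand and multiply mapped reads is not given in the sources used here. Of the table's columns, 3 match no sample and were not used here. Groups follow the labels' titles, which call the libraries biological replicates without saying how the cultures were separated, so that p-values measure the spread between these libraries.

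Genes kept by filterByExpr (minimum count 10) over the 9 libraries were normalized with TMM and tested with the quasi-likelihood test of edgeR 4.0.16 (robust, R 4.3.3), each comparison on its 6 libraries, with Benjamini-Hochberg adjustment over all 15555 genes and a threshold of 0.05. CPM and RPKM were computed from TMM-scaled library sizes and the deposited gene length. The test was checked on simulated counts. Total counts per library were 12554626 to 16073698 in siCtrl, 12282668 to 15239414 with siCDO1A and 12061295 to 14537158 with siCDO1C, with TMM factors from 0.9898 to 1.01.

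A batch number in the labels equals the replicate number of each library, which pairs the libraries by label. Deviations of same-numbered libraries from their group means, across 11332 genes of at least 5 CPM, had Pearson correlations from -0.376 to 0.378; genes are not independent replicates. The batch number was therefore a block in an alternative. The other alternatives were RLE size factors, DESeq2 1.42.0, no filter, 1 fit of all 9 libraries, at least 10 counts in every library, an adjusted p of 0.01, RPKM without TMM, another motif, and leaving out each library in turn. The genes, the 4 lists and the tests were chosen with earlier results of these data known. Genes named were the 9 members, CDO1, the list genes changed alike with both siRNAs (at most 6), up to 3 with the largest fold change per list and siRNA, those that differed between the siRNAs, and the 3 most like NFE2L2 and TXNRD1. Of the 9 genes, 8 matched RefSeq promoter windows (GRCh38.p14), by symbol. Values of 3 of the listed genes and markers are not reported here.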

Additional observations from a re-analysis of the deposited data

Results flagged for a closer look

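The response of 3 genes differed between the siRNAs when siCDO1C was tested directly against siCDO1A in edgeR. These were 1 of the 9 genes (11.1%) and 2 of the 98 other genes tested (2.04%), against 0.444% of all genes. PRDX1 had a log2 fold change of 0.56, from 84.1 ± 9.04 CPM with siCDO1A to 124 ± 15.5 CPM with siCDO1C (SD, n = 3). GSR had a log2 fold change of -0.95 and SLC7A11 one of -0.80. The PRDX1 call was lost without siCDO1A replicate 2 (adjusted p = 0.13) or replicate 3 (0.122). That of SLC7A11 was lost without siCDO1A replicate 3 (0.0877). The remaining CDO1 level was 2.5 ± 0.674 CPM with siCDO1A and 1.69 ± 0.974 CPM with siCDO1C (SD, n = 3), and its part in these differences was not tested.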

How the results depend on the processing

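Of the 4 calls among the 9 genes, RLE size factors, DESeq2, no filter, the fit of all 9 libraries and at least 10 counts in every library lost none. The replicate number was also used as a block, in the pairing that the labels give. The members changed then numbered 2 with siCDO1A, 1 with siCDO1C and 1 between the siRNAs, as without it. Among the genes named by the rule above, the block changed no call beyond those of GSK3B and PRPS2. The other genes changed numbered 16 in place of 20 with siCDO1A and 12 in place of 11 with siCDO1C. With siCDO1A, calls of list genes outside that rule were therefore lost as well. Which ones, among SQSTM1, GCLC and the others, is not given here. At an adjusted p of 0.01, the members that differed between the siRNAs numbered 0 in place of 1, and the other genes changed numbered 13 in place of 20 with siCDO1A and 6 in place of 11 with siCDO1C. Without 1 library each, the members changed ranged from 2 to 3 with siCDO1A, from 1 to 2 with siCDO1C and from 0 to 2 between the siRNAs. The other genes changed ranged from 14 to 29, from 5 to 25 and from 1 to 7, respectively, and the median of the 9 genes from -0.134 to -0.000504, from -0.131 to -0.00916 and from -0.0711 to 0.0163. The shares of all genes changed at 0.01 and in these fits are not given here. Without 1 library, 2 of 24 values lost the call of a member and 38 of 150 that of a named list gene, and none was reversed; such fits have fewer libraries. DESeq2 called 3 pentose phosphate and NADPH genes with siCDO1A in place of 5. Over the 98 other genes tested, it called 18 in place of 20 with siCDO1A and 13 in place of 11 with siCDO1C. The shares of all genes that DESeq2 called are not given here. With the motif TGANTCAGC, 0 promoter windows matched in place of 4. Among the 9 genes, counts were lowest for NQO1, at 54 to 90 per library.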
